A study of Homo sapiens with 12 samples.

Results

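Interferon-stimulated genes are transcribed when cells sense interferon, a secreted alarm signal against viruses, and their products detect, cut or trap viral RNA and proteins or keep the signal going. A fixed list of 35 such genes was followed in U87 cells, and all 35 were found among the 62757 genes of the expression table by matching their Ensembl identifiers to symbols. Of these, 32 had a mean expression value of at least 3 and were tested, and 3 lay below it: RSAD2 (viperin) at 1.295, CMPK2 at 1.76 and IFI27 at 2.67. U87, also called U87MG, is an established human glioblastoma line, so all libraries came from the same tumour line and say nothing of differences between tumours. Cells received compound 4 at 10 µM, compound 5 at 5 µM, compound 1 at 30 µM or vehicle, and were harvested after 72 h, with 3 libraries of poly(A) RNA in each group and 12 in all. No genetic change or interferon treatment is named for any group. Taxodione and paclitaxel appear in the title of the series, but the labels do not tie either to a number, so compounds are called by number. The labels describe the 3 libraries of each group as independent biological replicates.

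As background, type I and type III interferons act through receptors that activate the kinases JAK1 and TYK2, which phosphorylate STAT proteins. STAT2 joins IRF9 in a complex, ISGF3, that binds a promoter element called the interferon-stimulated response element (ISRE). Interferon gamma acts mainly through a second element (GAS), and IRF1 binds ISRE-like sites as well. Many cells, tumour lines among them, also transcribe part of these genes with no interferon added.

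The promoters of 4 members that fell with compound 4 are shown because their windows hold the core ISRE letters on either strand: GAAA, any 2 bases, then GAAA. Bases run 5′ to 3′ along the coding strand of each gene, on GRCh38.p14 as given by RefSeq, from 170 bases before the RefSeq start site to the base before it (for EIF2AK2 to 4 bases past it, where its match ends). Capitals mark the ISRE letters, and a match on the opposite strand reads TTTC, any 2 bases, then TTTC.
DDX60 chr4:168318753-168318922: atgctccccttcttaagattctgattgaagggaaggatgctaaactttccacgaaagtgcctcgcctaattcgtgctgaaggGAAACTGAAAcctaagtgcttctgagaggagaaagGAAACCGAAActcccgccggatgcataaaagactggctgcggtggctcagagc
IFIH1 chr2:162318685-162318854: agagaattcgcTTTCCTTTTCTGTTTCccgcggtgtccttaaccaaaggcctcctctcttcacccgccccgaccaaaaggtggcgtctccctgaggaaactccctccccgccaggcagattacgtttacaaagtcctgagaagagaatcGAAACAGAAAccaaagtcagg
EIF2AK2 chr2:37156977-37157150: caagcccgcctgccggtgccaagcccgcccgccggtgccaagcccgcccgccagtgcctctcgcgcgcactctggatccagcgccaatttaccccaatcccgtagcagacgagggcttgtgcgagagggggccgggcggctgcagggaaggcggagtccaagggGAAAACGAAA
IFIT1 chr10:89392453-89392622: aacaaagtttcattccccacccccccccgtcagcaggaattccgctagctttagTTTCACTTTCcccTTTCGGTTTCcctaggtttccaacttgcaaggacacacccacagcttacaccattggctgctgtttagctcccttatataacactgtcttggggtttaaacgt
DDX60 and EIF2AK2 carried the letters on the coding strand, IFIT1 carried 2 matches on the opposite strand, and IFIH1 carried 2 overlapping matches on the opposite strand and 1 on the coding strand. DDX60, IFIH1 and EIF2AK2 lie on the minus strand and IFIT1 on the plus strand. Among the 28 members with a RefSeq window of 250 bases before to 50 after the start, 19 held the ISRE letters, whereas 4.38% of 27305 genes with a window did, and 3.57% of all 35116 windows. The GAS letters TTCNNNGAA, also searched on both strands, stood in 9 of the 28 members and in 9.38% of genes. IRF7, IFIT2, MX2, OASL, OAS2, USP18 and TRIM22 had no window.

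**Figure D1:**
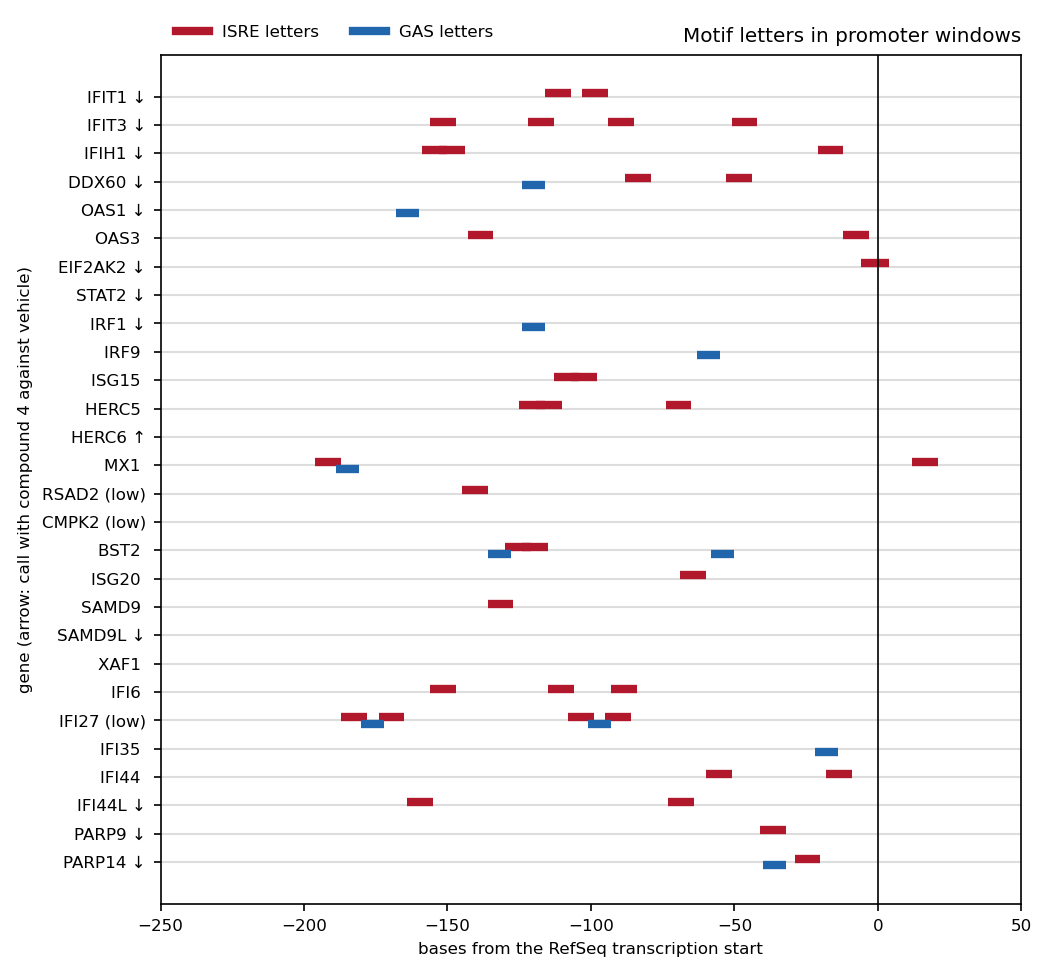
Positions of the ISRE letters (red) and GAS letters (blue) in the promoter windows of the 28 members with a window, in bases from the RefSeq start (vertical line); arrows show the call with compound 4 against vehicle, and 3 members are marked low because they were not tested. Most matches lie before the start, and HERC6, the member that rose, has none while its relative HERC5 has 3. Matches from all windows of a gene share 1 line. A site held by overlapping windows is drawn more than once, as for IFI44 (from -18 and from -60) and IFI27.

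Expression values are regularized logs (rlog) to base 2, in which a difference of 1 is a doubling before shrinkage. Rlog pulls values of weakly read genes towards their mean, so differences and spreads of such genes are understated. Members covered a wide range in vehicle, from 3.82 for IRF9 to 11.34 for STAT2, with a median of 8.52 against 8.59 for all 15524 genes tested. Per kilobase of exon, the rlog level in vehicle was highest for IFI6 (9.21), STAT2 (8.73), IFI44 (8.17) and ISG15 (8.13), and among tested members lowest for MX1 (2.39), IRF9 (1.89) and XAF1 (1.83). The effector MX1, a common readout of interferon, was thus among the least expressed members, and RSAD2, CMPK2 and IFI27 stood lower still. All 22 interferon ligand genes looked up, including the alpha family, IFNB1, IFNG and the lambda genes, were listed at 0 in every library.

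U87 identity and other cells were checked with markers. VIM, CD44, TNC and NES were between 10.35 and 16.13 in every library, OLIG2 and GFAP lay above 5, and S100B (vehicle mean 0.77) and SOX2 (0.093) were near 0, so 8 of 10 glioblastoma and astroglial markers passed a mean of 3. On a linear scale these markers summed to 165487 to 168762 with compound 4 and 185833 to 190926 with compound 5. Their sums were 178703 to 182253 with compound 1 and 167438 to 172684 in vehicle. Of 12 leukocyte markers 10 lay below 3, with PTPRC, the CD45 gene, at 0.066 in vehicle and CD3D at 0 throughout. The exceptions were CSF1R, at 0.29 above vehicle with compound 4, and FCER1G, at 0.068. Summed on a linear scale, leukocyte markers ranged over 273 to 295 with compound 4, 271 to 282 with compound 5, 227 to 263 with compound 1 and 235 to 242 in vehicle, and their part in the results was not tested. Neuron markers summed to 1056 to 1122 with compound 4, 1095 to 1142 with compound 5, 892 to 896 with compound 1 and 866 to 898 in vehicle. Of the 6 neuron markers 4 were tested. SNAP25, a synaptic vesicle fusion gene, rose by 0.55 with compound 4 and 0.61 with compound 5, and SYT1 fell by 0.20 and 0.26. GAD1 rose by 0.16 with compound 5, and the remaining tested marker did not pass with compound 5. Of 6 endothelial markers 3 were tested, VWF fell by 0.39 with compound 4 and 0.31 with compound 5, and their sums were 169 to 180.3 with compound 4, 167 to 173 with compound 5, 181 to 191 with compound 1 and 181 to 186 in vehicle. Of 7 epithelial markers 2 were tested and neither passed with any compound. The part of these markers in the results was not tested either. Depth per library is unknown because no counts were given. Libraries of the same group differed by a root mean square of 0.0606 to 0.0996 over genes, and libraries of different groups by 0.0922 to 0.218. Replicate 1 of compound 5 stood apart from the other libraries of its group on the fourth principal component (7.45 against -2.91 and -3.52).

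**Figure D2:**
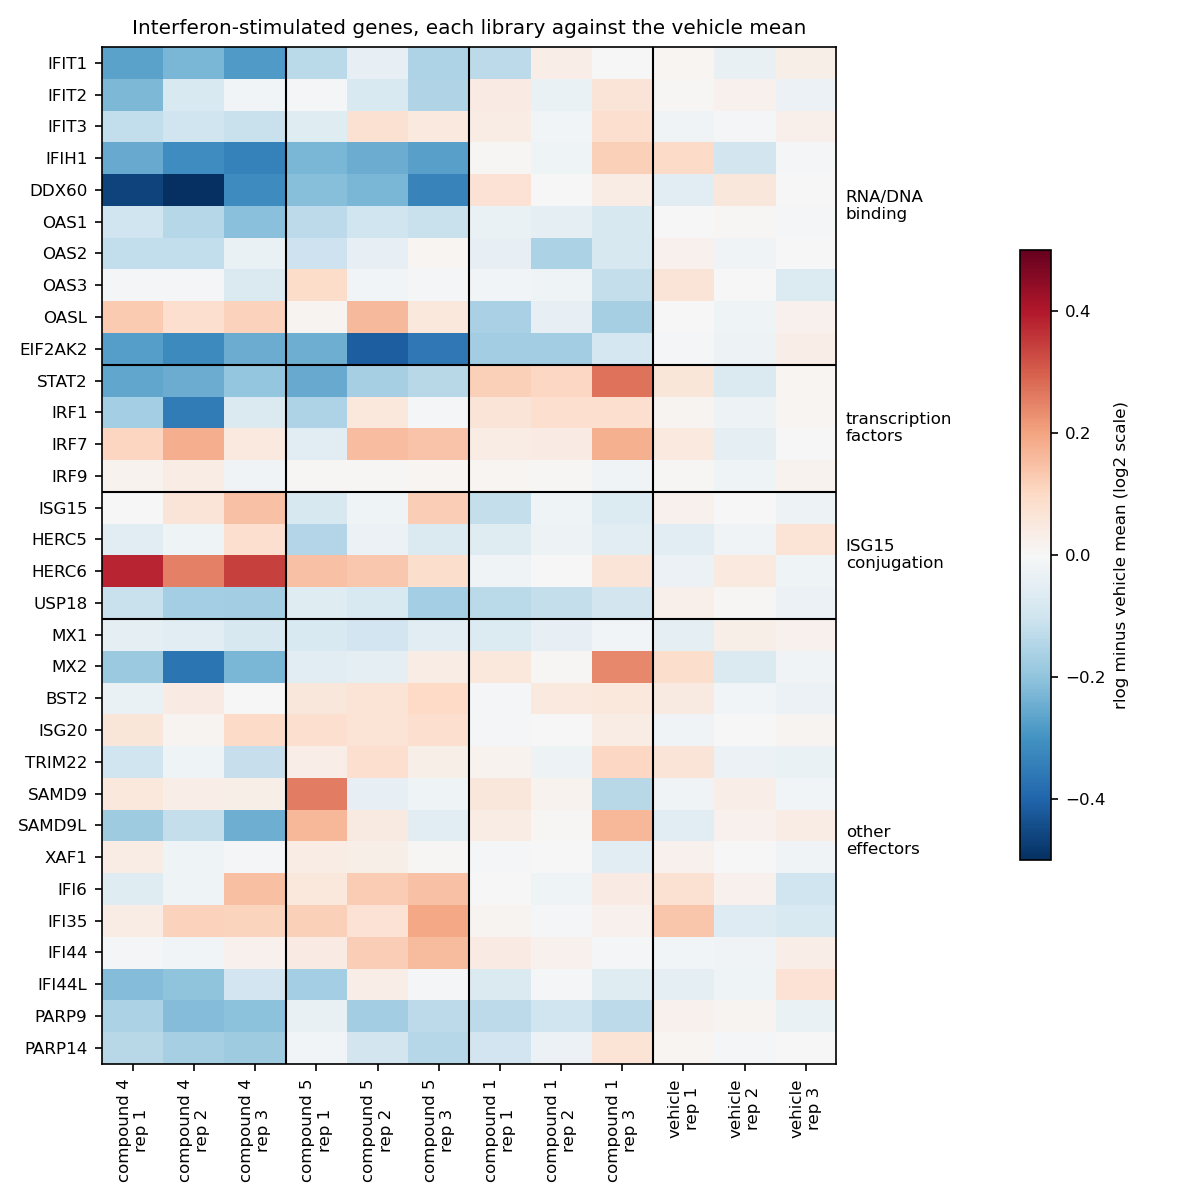
Rlog value of each tested member in each library minus the vehicle mean of that gene (colour, log2 scale), with members grouped by role and libraries in columns by group. DDX60, IFIH1, EIF2AK2 and STAT2 are blue in all compound 4 and compound 5 libraries, and HERC6 is red in all compound 4 libraries.

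With compound 4, RNA sensors such as DDX60 and IFIH1, the kinase gene EIF2AK2 and the transcription factor gene STAT2 fell, and HERC6 rose. Against vehicle, 15 of 32 members differed (14 lower and 1 higher, limma, Benjamini-Hochberg adjusted p under 0.05), while 40.6% of all genes tested did, 21.6% lower and 19% higher. The share of members called, 46.9%, was near that of all genes. The median difference was -0.085 over the members and -0.0013 over all genes tested. In bulk RNA, fewer cells that express a gene and less of its RNA per cell cannot be told apart. Compound 4 and vehicle libraries did not overlap for 17 members, a state shared by 53.4% of all genes. The mean deviation of the 32 members from their vehicle means was -0.085, -0.093 and -0.065 in the compound 4 libraries and 0.015, -0.011 and -0.0037 in the vehicle libraries.

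Genes whose products bind RNA or DNA had 6 of 10 members lower and 0 higher with compound 4 by limma (8 and 1 at an unadjusted p under 0.05), where 21.6% of all genes tested were lower and 19% higher. DDX60, a helicase reported to aid signalling by cytosolic RNA sensors (ENSG00000137628.18, GRCh38 chromosome 4, 168216293 to 168318807), had rlog values of 8.77, 8.74 and 8.92 with compound 4, 9.02, 9.01 and 8.90 with compound 5, 9.31, 9.23 and 9.27 with compound 1, and 9.17, 9.29 and 9.24 in vehicle. Compound 4 and compound 5 libraries all lay below every compound 1 and vehicle library. It fell by 0.42 with compound 4 (SE 0.049, 95% interval -0.52 to -0.32, limma adjusted p = 6.31e-08), or 0.745-fold as the rlog values give it.

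IFIH1 encodes MDA5, a sensor of long double-stranded RNA (ENSG00000115267.10, chromosome 2, 162267079 to 162318703). Its values were 7.61, 7.55 and 7.53 with compound 4, 7.63, 7.61 and 7.59 with compound 5, 7.87, 7.84 and 7.98 with compound 1, and 7.96, 7.77 and 7.86 in vehicle. All libraries of compounds 4 and 5 were again below all others, and the difference from vehicle was -0.30 with compound 4 (SE 0.050, limma adjusted p = 2.00e-05).

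EIF2AK2, the gene of the kinase PKR that stops translation when it meets double-stranded RNA (ENSG00000055332.19, chromosome 2, 37099210 to 37157065), stood at 10.87, 10.83 and 10.90 with compound 4, 10.90, 10.73 and 10.79 with compound 5, 10.97, 10.97 and 11.06 with compound 1, and 11.13, 11.12 and 11.18 in vehicle. Every treated library lay below every vehicle library. The fall with compound 4 was 0.28 (SE 0.042, limma adjusted p = 3.94e-06).

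IFIT1, whose product binds viral RNA that lacks the cap marks of the host (ENSG00000185745.10, chromosome 10, 89392546 to 89406486), measured 6.70, 6.74 and 6.69 with compound 4, 6.84, 6.93 and 6.82 with compound 5, 6.84, 7.005 and 6.97 with compound 1, and 6.98, 6.93 and 6.999 in vehicle. Compound 4 libraries were separate from all the rest and IFIT1 fell by 0.26 (SE 0.047, limma adjusted p = 6.04e-05). OAS1, which makes short adenylate chains that switch on RNase L (ENSG00000089127.15, chromosome 12, 112906777 to 112933222), was weakly expressed, at 5.09, 5.05 and 4.99 with compound 4, 5.06, 5.10 and 5.08 with compound 5, 5.16, 5.15 and 5.12 with compound 1, and 5.198, 5.202 and 5.185 in vehicle. Its fall with compound 4 was 0.15 (SE 0.031, limma adjusted p = 3.53e-04). Its relative OASL, which lacks that enzyme activity, went the other way without passing, at 0.11 with compound 4 (limma adjusted p = 0.0521). It passed without replicate 1 or 2 of compound 5 or replicate 2 or 3 of compound 1 (limma adjusted p = 0.0330 to 0.0497).

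**Figure D3:**
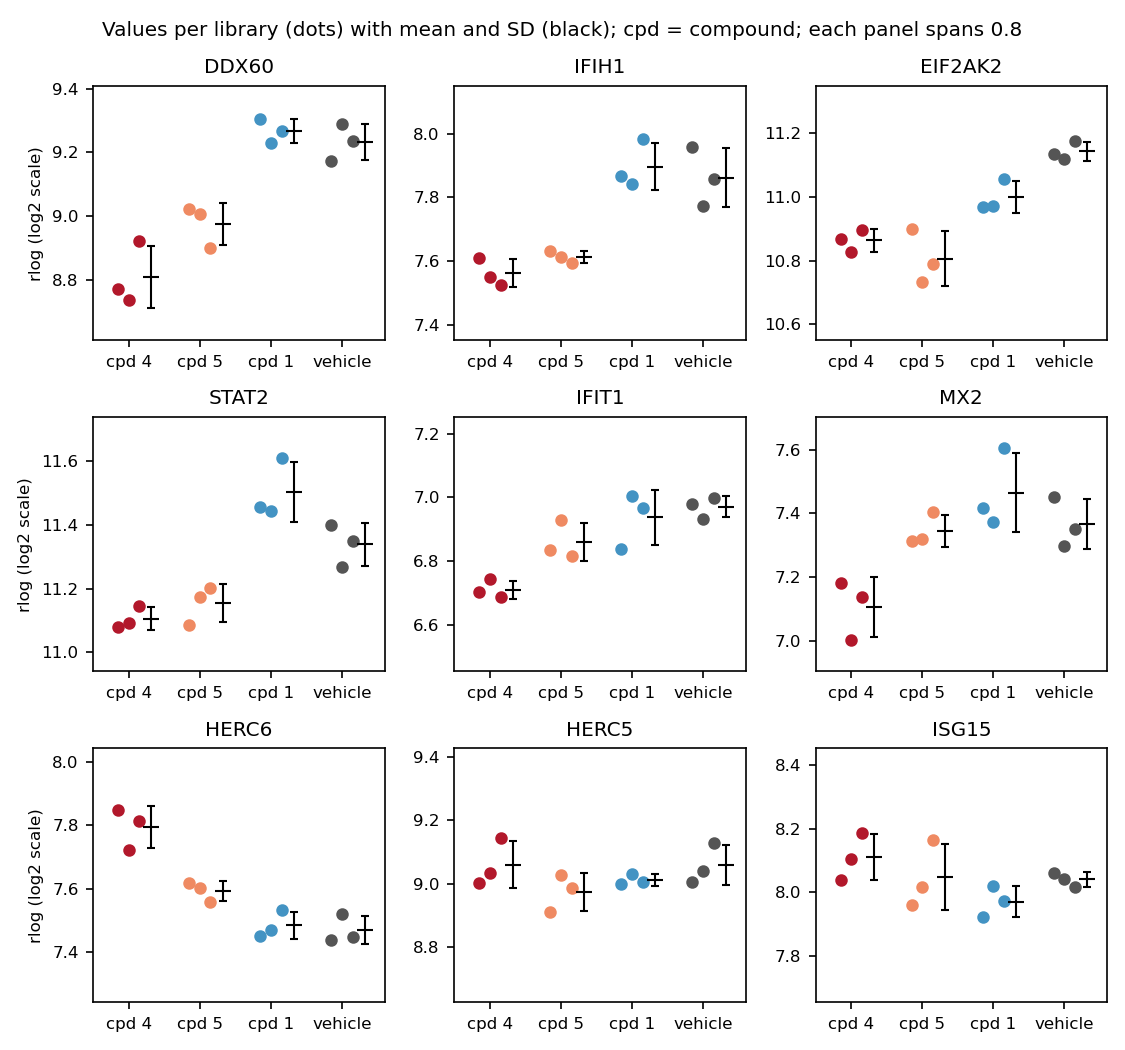
Rlog value (log2 scale) of 9 members in each library (dots) with group mean and SD (black, n = 3), each panel spanning 0.8 units. DDX60, IFIH1 and EIF2AK2 are lower with compounds 4 and 5 than in vehicle, MX2 and IFIT1 are lowest with compound 4, and HERC6 is highest with compound 4.

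Of the 4 transcription factor genes, 2 fell with compound 4 and 0 rose, also at an unadjusted p under 0.05 (limma). That is 50% of only 4 genes, near the 40.6% of all genes called, 21.6% lower and 19% higher. STAT2, a subunit of ISGF3 (ENSG00000170581.15, chromosome 12, 56341597 to 56360155), had values of 11.08, 11.09 and 11.15 with compound 4, 11.09, 11.17 and 11.20 with compound 5, 11.46, 11.44 and 11.61 with compound 1, and 11.40, 11.27 and 11.35 in vehicle. Libraries of compounds 4 and 5 lay below vehicle and those of compound 1 above it, with no overlap in either direction. With compound 4 the fall was 0.23 (SE 0.045, limma adjusted p = 1.20e-04).

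IRF1, an activator of interferon-stimulated and antigen presentation genes (ENSG00000125347.15, chromosome 5, 132481609 to 132490798), showed 10.16, 9.98 and 10.25 with compound 4, 10.17, 10.38 and 10.32 with compound 5, 10.39, 10.41 and 10.41 with compound 1, and 10.34, 10.303 and 10.34 in vehicle. The compound 4 libraries were spread widely, and the fall of 0.196 (SE 0.053, limma adjusted p = 0.00366) did not pass without replicate 2 of that group, at -0.12 (limma adjusted p = 0.0667). IRF7, a regulator of interferon alpha genes (ENSG00000185507.21, chromosome 11, 612553 to 615999), had 7.77, 7.84 and 7.71 with compound 4, 7.604, 7.82 and 7.803 with compound 5, 7.698, 7.704 and 7.84 with compound 1, and 7.71, 7.61 and 7.66 in vehicle, and did not pass with compound 4 (0.11, 95% interval -0.00073 to 0.22, limma adjusted p = 0.106). IRF9, the DNA-binding part of ISGF3 (ENSG00000213928.10, chromosome 14, 24161053 to 24166565), had 3.84, 3.85 and 3.796 with compound 4, 3.82, 3.82 and 3.82 with compound 5, 3.83, 3.82 and 3.798 with compound 1, and 3.82, 3.79 and 3.83 in vehicle. Groups overlapped for IRF9 and its difference with compound 4 was 0.013 (95% interval -0.030 to 0.056), but 48.4% of its exon bases are shared with another gene on the same strand, so its reads may have been split.

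The genes of ISG15 conjugation did not move together with compound 4: HERC6 rose, USP18 fell, and ISG15 and HERC5 did not pass. HERC6, in mice the main ISG15 ligase, a role of HERC5 in human cells (ENSG00000138642.16, chromosome 4, 88378739 to 88443111), was at 7.85, 7.72 and 7.81 with compound 4, 7.62, 7.604 and 7.56 with compound 5, 7.45, 7.47 and 7.53 with compound 1, and 7.44, 7.52 and 7.45 in vehicle. The compound 4 libraries lay above all others. The rise was 0.32 (SE 0.046, limma adjusted p = 1.93e-06), 1.25-fold from the rlog values, whereas its neighbour HERC5 differed by 0.0027 (95% interval -0.091 to 0.096). ISG15, the ubiquitin-like modifier itself (ENSG00000187608.10, chromosome 1, 1001138 to 1014540), had values of 8.04, 8.11 and 8.19 with compound 4, 7.96, 8.02 and 8.16 with compound 5, 7.92, 8.02 and 7.97 with compound 1, and 8.06, 8.04 and 8.02 in vehicle. Its groups overlapped and the difference with compound 4 was 0.070 (95% interval -0.034 to 0.17).

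Among 14 tested antiviral effectors and other induced genes, 5 fell with compound 4 and 0 rose, also at an unadjusted p under 0.05 (limma). That is 35.7% called, against 40.6% of all genes. MX2, a dynamin-like GTPase that blocks nuclear entry of retroviruses (ENSG00000183486.14, chromosome 21, 41361943 to 41409390), measured 7.18, 7.001 and 7.14 with compound 4, 7.31, 7.32 and 7.403 with compound 5, 7.42, 7.37 and 7.61 with compound 1, and 7.45, 7.296 and 7.35 in vehicle. Compound 4 libraries were below the rest, by 0.26 against vehicle (SE 0.057, limma adjusted p = 5.76e-04). Its paralog MX1, which blocks influenza virus among others (ENSG00000157601.15, chromosome 21, 41420304 to 41459214), had 5.46, 5.44 and 5.42 with compound 4, 5.42, 5.402 and 5.44 with compound 5, 5.43, 5.46 and 5.48 with compound 1, and 5.45, 5.53 and 5.52 in vehicle. Compound 4 and vehicle overlapped for MX1, with a difference of -0.061 (95% interval -0.13 to 0.0082).

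Members that completed the count of falls with compound 4, named after their values were seen, were PARP9 (-0.19) and PARP14 (-0.16), ADP-ribosyltransferase family genes, SAMD9L (-0.18), IFI44L (-0.17), USP18 (-0.15), the protease that removes ISG15, and IFIT3 (-0.11). IFI44L did not pass without replicate 1 of compound 4 or replicate 3 of vehicle (limma adjusted p = 0.0507 and 0.0659). IFIT3 did not pass without any 1 library of compound 4 or vehicle or without replicate 1 of compound 1 (limma adjusted p = 0.0568 to 0.133). With the level of NEAT1 and MALAT1, transcripts retained in the nucleus, as a covariate, PARP9, PARP14, SAMD9L and USP18 did not pass either (limma adjusted p = 0.0732 to 0.231). Their differences were then -0.11, -0.16, -0.19 and -0.11, so those of PARP14 and SAMD9L were about as large as without it. NEAT1 itself was higher by 0.84 with compound 4, 0.72 with compound 5 and 0.54 with compound 1. The covariate thus moved with treatment, and the run cannot separate them. With it, 26.1%, 14.6% and 3.93% of all genes were called for compounds 4, 5 and 1 against vehicle. Without it the shares were 40.6%, 35.1% and 10.9%, so lost calls were not confined to members.

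**Figure D4:**
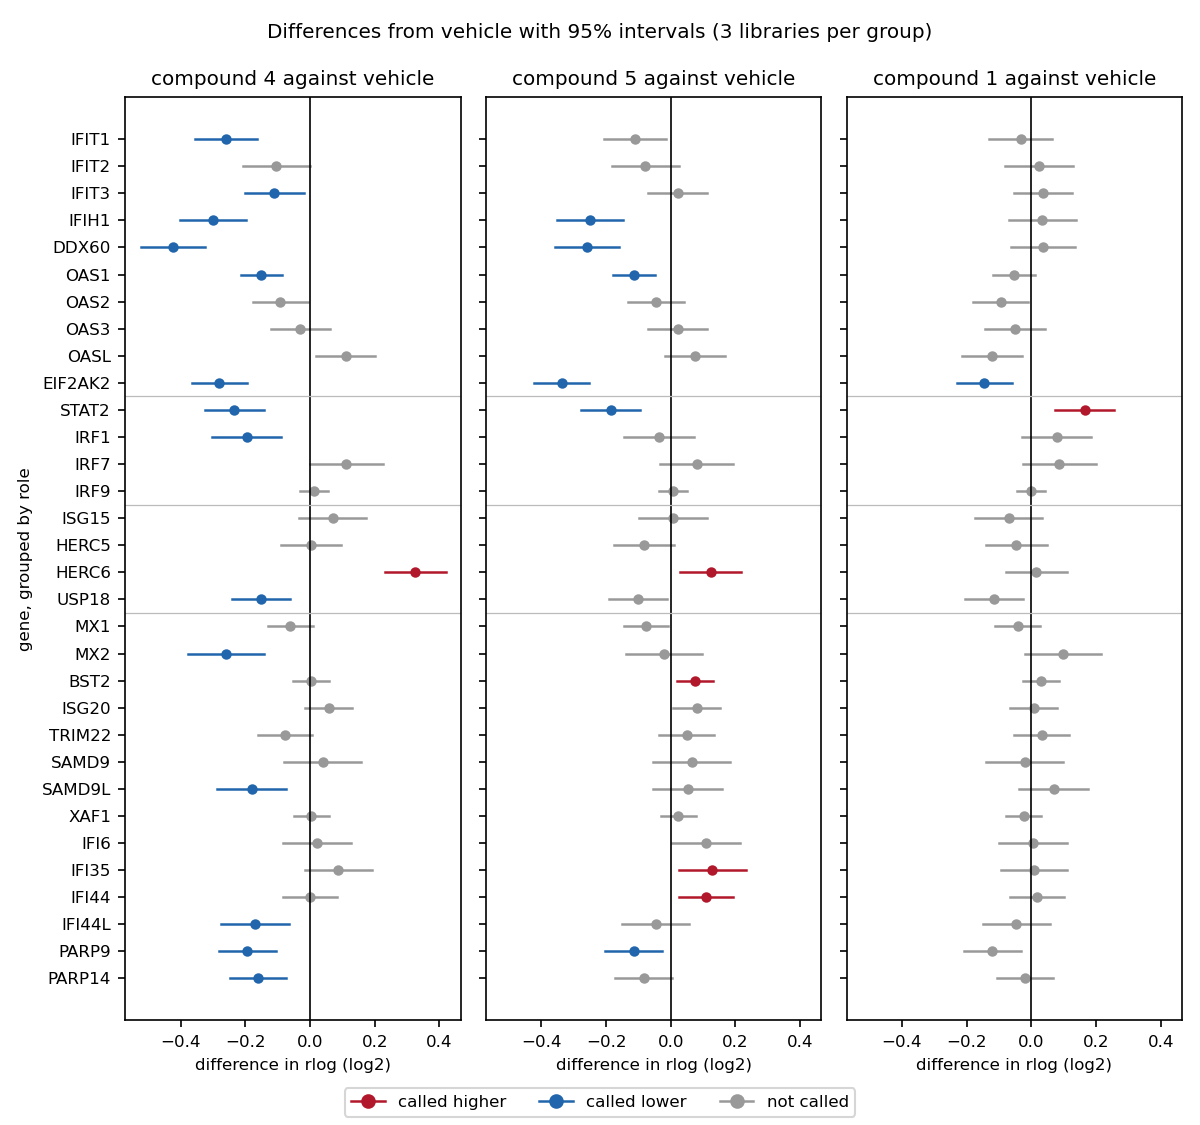
Difference in rlog (log2 scale) from vehicle for each tested member with its 95% interval (3 libraries per group), for compounds 4, 5 and 1 from left to right; blue was called lower, red higher and grey not called. Falls with compound 4 outnumber rises 14 to 1, compound 5 shows 6 falls and 4 rises, and compound 1 shows 1 of each.

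With compound 5, 6 of 32 members fell and 4 rose against vehicle, in all 31.2%, whereas 35.1% of all genes tested differed, 19.2% lower and 15.9% higher. The member median was -0.0075, and libraries did not overlap for 14 members and for 44% of all genes. EIF2AK2, IFIH1, DDX60 and STAT2, whose library values stand above, fell most and kept their calls in every alternative run. EIF2AK2 fell by 0.34 (SE 0.042, 95% interval -0.42 to -0.25, limma adjusted p = 4.08e-07), DDX60 by 0.26 (SE 0.049, 1.37e-04), IFIH1 by 0.25 (SE 0.050, 2.71e-04) and STAT2 by 0.19 (SE 0.045, 0.00183). OAS1 fell by 0.11 (SE 0.031, limma adjusted p = 0.00585), with all 3 of its libraries below vehicle, but did not pass with the NEAT1 and MALAT1 covariate (-0.097, limma adjusted p = 0.270). IFIT1 was at -0.11 and did not pass (95% interval -0.21 to -0.013, limma adjusted p = 0.0703), nor did IRF1 (-0.037), IRF7 (0.080), ISG15 (0.0070), MX1 (-0.076) or IRF9 (0.0062). MX1 libraries did not overlap vehicle. MX1 passed as lower with median-centred or quantile-normalized libraries or without replicate 1 of vehicle (limma adjusted p = 0.0254 to 0.04995). IFIT1 passed as lower with quantile normalization or without replicate 2 of compound 5 (limma adjusted p = 0.0490 and 0.0351). IRF7 passed as higher without replicate 1 of compound 5 (limma adjusted p = 0.0285).

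The rises with compound 5 were small. IFI35, an interferon-induced leucine zipper gene (ENSG00000068079.8, chromosome 17, 43006725 to 43014456), had 8.87, 8.82 and 8.94 with compound 5, 8.78, 8.86 and 8.86 with compound 4, 8.76, 8.74 and 8.77 with compound 1, and 8.89, 8.68 and 8.67 in vehicle. Replicate 1 of vehicle lay within the compound 5 range, so groups overlapped, and the difference was 0.13 (SE 0.050, limma adjusted p = 0.0458). HERC6 rose by 0.12 (SE 0.046, limma adjusted p = 0.0366). BST2, the gene of tetherin, which holds budding virus at the cell surface, was at 0.076, IFI44 at 0.11 and PARP9 at -0.11, the last 3 being named after their values were seen.

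The 4 rises narrowly missed the threshold when libraries were centred on their medians (limma adjusted p = 0.0521 to 0.0637). That left 0 members higher and 7 lower by limma (4 and 10 at an unadjusted p under 0.05). With quantile normalization 2 were higher and 8 lower. Of all genes, 35.2% were called with median centring and 33.4% with quantile normalization, against 35.1% in the main run. Without replicate 3 of compound 5 or replicate 2 of vehicle, 6 members passed, 1 higher and 5 lower in each case. Of all genes, 30.3% and 30.7% were called in these runs. IFI35 was lost without any of 8 libraries (limma adjusted p = 0.0516 to 0.220), among them replicate 3 of vehicle (0.220). HERC6 was lost without replicate 1 or 2 of compound 5 or replicate 1 or 3 of vehicle (0.0867 to 0.125). IFI44 and PARP9 were lost without replicate 2 or 3 of compound 5 or replicate 1 or 2 of vehicle (0.0999 to 0.185), and BST2 without replicate 2 or 3 of compound 5 or of vehicle (0.0560 to 0.135). With the NEAT1 and MALAT1 covariate, PARP9 was at -0.017 (limma adjusted p = 0.913) and IFI44 at 0.041 (0.765), and HERC6 (0.094), BST2 (0.093) and IFI35 (0.21) did not pass either. OAS3 (0.20) and SAMD9 (0.30) passed as higher with that covariate, against 0.022 and 0.065 without it. Of all genes, 14.6% were called in that run, against 35.1% in the main run.

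Compound 1 changed few members: STAT2 rose, EIF2AK2 fell, and 30 of 32 did not pass. That is 6.25% of members, against 10.9% of all genes tested, 5.24% higher and 5.63% lower, and libraries did not overlap for 8 members and for 29.9% of all genes. STAT2 rose by 0.16 (SE 0.045, 95% interval 0.073 to 0.26, limma adjusted p = 0.0168), the reverse of its direction with compounds 4 and 5. EIF2AK2 fell by 0.15 (SE 0.042, limma adjusted p = 0.0233). STAT2 did not pass without replicate 3 of compound 1 (limma adjusted p = 0.144) or replicate 2 of vehicle (0.127), and EIF2AK2 not without replicate 1 or 2 of compound 1 or any 1 vehicle library (0.0513 to 0.105). With the NEAT1 and MALAT1 covariate neither passed: STAT2 was at 0.082 (limma adjusted p = 0.519) and EIF2AK2 at -0.15 (0.167). Of all genes, 3.93% were called in that run. With quantile normalization STAT2 alone passed. The number of members called was 1 without replicate 1 or 3 of compound 1 or replicate 1 or 3 of vehicle, 0 by limma without replicate 2 of vehicle (6 at an unadjusted p under 0.05) and 4 without replicate 1 of compound 5, whose libraries enter the shared spread. Of all genes, 6.72% and 6.3% were called without replicate 1 or 3 of compound 1, and 6.8% and 7.79% without replicate 1 or 3 of vehicle. The share was 5.47% without replicate 2 of vehicle and 15.2% without replicate 1 of compound 5, against 10.9% in the main run. For DDX60 and IFIH1, which fell with compounds 4 and 5, the differences with compound 1 were 0.035 (95% interval -0.064 to 0.13) and 0.034 (-0.068 to 0.14).

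Treated groups were also set against each other, at doses that differ, so these are differences between treatments as given and not between compounds at a matched dose. Compound 4 against compound 1 differed for 16 members, 3 higher and 13 lower, with 42.7% of all genes called, and libraries did not overlap for 17 members and 53% of genes. DDX60 was lower by 0.46 (SE 0.049), STAT2 by 0.40, MX2 by 0.36 and IFIH1 by 0.33 (limma adjusted p = 1.37e-08, 3.89e-08, 1.03e-05 and 3.81e-06). Without replicate 3 of compound 1 the count was 10, with 36.6% of all genes called. Compound 5 against compound 1 differed for 5 members, 1 higher and 4 lower, with 30.1% of all genes called, and libraries did not overlap for 14 members and 39% of genes. STAT2 (-0.35), IFIH1 (-0.28) and DDX60 (-0.29) were lower and OASL (0.198) was higher with compound 5.

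OASL had 9.21, 9.16 and 9.197 with compound 4, 9.09, 9.24 and 9.13 with compound 5, 8.92, 9.04 and 8.92 with compound 1, and 9.08, 9.06 and 9.102 in vehicle (ENSG00000135114.14, chromosome 12, 121019111 to 121039242). Its compound 1 libraries were the lowest and its compound 4 libraries lay above vehicle, and the difference between compounds 4 and 1 was 0.23 (SE 0.045, limma adjusted p = 1.28e-04). Compound 5 against compound 4 differed for 8 members, 7 higher and 1 lower, with 22% of all genes called, and libraries did not overlap for 8 members and 35% of genes. MX2 was higher with compound 5 by 0.24 (SE 0.057, limma adjusted p = 0.00299) and SAMD9L by 0.23 (SE 0.052, 0.00150), whereas HERC6 was lower by 0.20 (SE 0.046, 0.00194). SAMD9L, a gene linked to growth restraint (ENSG00000177409.12, chromosome 7, 93130055 to 93148369), had 9.51, 9.39 and 9.29 with compound 5, 9.17, 9.22 and 9.098 with compound 4, 9.38, 9.35 and 9.51 with compound 1, and 9.29, 9.37 and 9.38 in vehicle. DDX60 was higher with compound 5 by 0.17 (limma adjusted p = 0.0137), which did not pass without replicate 1 or 2 of compound 4 or replicate 2 of compound 5 (0.0611 to 0.102). The number of members called between compounds 5 and 4 was 3 without replicate 1 of compound 4 or without replicate 2 of compound 5. Of all genes, 16.1% and 15.6% were called in these runs.

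ISRE letters were found both in members that fell and in members that were not called. Of the members with a window, 8 of 12 that fell with compound 4 held the ISRE letters shown above, as did 9 of 12 that were not called, and HERC6, the 1 member higher, did not. The GAS letters stood in 4 of 12 that fell and 4 of 12 that were not called. ISG15, HERC5, OAS3 and IFI6 each held at least 2 ISRE matches and did not pass with compound 4, while STAT2 and SAMD9L held no match of either motif and fell. No match says only that these letters were not in the window.

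Members that lie close together on a chromosome were also set side by side, with no test of the differences between neighbours. HERC6 and HERC5 lie side by side on chromosome 4, at 88378739 to 88443111 and 88457117 to 88506163, and with compound 4 they differed from vehicle by 0.32 and 0.0027. SAMD9 and SAMD9L are neighbours on chromosome 7, with differences of 0.039 (not passing) and -0.18. With the NEAT1 and MALAT1 covariate SAMD9 passed as higher, at 0.235 (limma adjusted p = 0.0185), and SAMD9L did not pass. MX2 and MX1 on chromosome 21 stood at -0.26 and -0.061 (not passing), and OAS1, OAS3 and OAS2 on chromosome 12 at -0.15, -0.030 (not passing) and -0.092 (not passing). IFI44L and IFI44 on chromosome 1 were at -0.17 and 0.00070 (not passing). PARP9 and PARP14 on chromosome 3 both fell, by 0.19 and 0.16. IFIT1, IFIT2 and IFIT3 on chromosome 10 were at -0.26, -0.11 (not passing) and -0.11. SAMD9 had the widest spread of any member, with 9.27, 8.98 and 8.99 in the compound 5 libraries.

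Other genes of the pathway were counted from fixed lists. Of 16 tested receptor and JAK-STAT genes, 2 rose and 7 fell with compound 4, 2 rose and 4 fell with compound 5, and 0 rose and 1 fell with compound 1 (2 and 1 at an unadjusted p under 0.05). In all 56.2%, 37.5% and 6.25% of the list were called with compounds 4, 5 and 1, against 40.6%, 35.1% and 10.9% of all genes tested, so the shares with compounds 5 and 1 were near or below those of all genes. The 1 fall, SOCS1 at -0.19, was lost without replicate 1 or 3 of compound 1 or replicate 2 or 3 of vehicle (limma adjusted p = 0.0532 to 0.131). The feedback inhibitor genes SOCS1 and SOCS3 were the 2 rises with compound 4, at 0.47 (SE 0.052, limma adjusted p = 3.98e-08) and 0.34 (SE 0.037, 1.90e-08), and were higher by 0.36 and 0.17 with compound 5. JAK2 fell by 0.41 with compound 4 and 0.21 with compound 5, and STAT3 by 0.35 and 0.199.

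Among 17 tested nucleic acid sensing genes, 4 rose and 7 fell with compound 4, 1 rose and 6 fell with compound 5, and 1 rose and 1 fell with compound 1. These are 64.7%, 41.2% and 11.8% of the list, beside 40.6%, 35.1% and 10.9% of all genes. The DNA sensor gene IFI16 fell by 0.36 with compound 4 and 0.18 with compound 5, and TRIM25, a ligase acting on RIG-I, by 0.202 and 0.35. AIM2 and SAMHD1, which sense DNA and break down nucleotides, fell by 0.27 and 0.14 with compound 4. SAMHD1 fell by 0.27 with compound 1 as well.

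Of 48 further interferon-stimulated genes tested out of 58, 5 rose and 19 fell with compound 4, 9 rose and 16 fell with compound 5, and 3 rose and 2 fell with compound 1 (3 called without replicate 2 or 3 of vehicle). The shares called were 50%, 52.1% and 10.4%, beside 40.6%, 35.1% and 10.9% of all genes. Without replicate 2 or 3 of vehicle, 5.47% and 7.79% of all genes were called for compound 1. CD274, the gene of the immune checkpoint ligand PD-L1, rose by 0.78 with compound 4 (SE 0.054, limma adjusted p = 3.94e-12) and 0.48 with compound 5, with values of 8.88, 8.87 and 8.76 and of 8.61, 8.48 and 8.52, against 7.95, 8.12 and 8.099 in vehicle. PML fell by 0.51, GBP2 by 0.45 and APOL6 by 0.43 with compound 4, and by 0.33, 0.23 and 0.34 with compound 5.

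Antigen presentation genes had 3 rises and 12 falls among 22 with compound 4, 2 rises and 9 falls with compound 5, and 6 rises and 0 falls with compound 1 (limma, 9 and 0 at an unadjusted p under 0.05). Of all genes tested, 19% rose and 21.6% fell with compound 4, 15.9% rose and 19.2% fell with compound 5, and 5.24% rose and 5.63% fell with compound 1. HLA-DRA fell by 0.53 and CD74, the invariant chain, by 0.53 with compound 4. HLA-C had 13.08, 13.05 and 13.097 with compound 4, 13.68, 13.68 and 13.67 with compound 1, and 13.53, 13.42 and 13.405 in vehicle. Its compound 4 libraries lay below vehicle and its compound 1 libraries above it, with no overlap. It fell by 0.38 with compound 4 (SE 0.038, limma adjusted p = 5.37e-09) and rose by 0.22 with compound 1 (limma adjusted p = 2.79e-04). HLA genes are similar in sequence, and how shared reads were assigned is not stated. The number called was 3 with compound 1 without its replicate 1 or without replicate 2 of vehicle. Of all genes, 6.72% and 5.47% were called in these runs, against 10.9% in the main run. For compound 5 the number called in this list was 7 without its replicate 1 and 5 without replicate 1 or 2 of vehicle. Of all genes, 36.7%, 27.3% and 30.7% were called in those runs, against 35.1% in the main run.

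**Figure D5:**
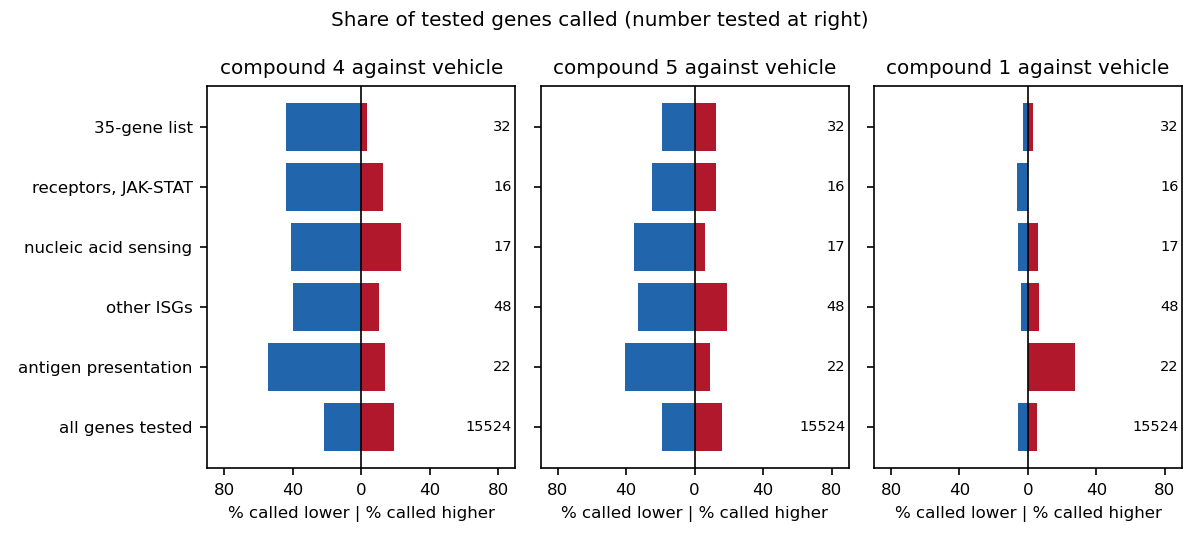
Percentage of tested genes called lower (blue, left) and higher (red, right) against vehicle in the 35-gene list, 4 other fixed lists and all genes, for compounds 4, 5 and 1; the number tested stands at the right. In the 35-gene list 14 of 32 fell with compound 4, and antigen presentation genes had 12 of 22 lower with compound 4 and 6 of 22 higher with compound 1.

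Overlapping gene models limit some members. Besides IRF9, TRIM22 shares 10.7% and IFIT2 8.68% of exon bases with other genes on the same strand, and 10 members share exon bases with genes on the opposite strand, up to 38.3% for XAF1 and 22.0% for IRF1. No source used here states the strand setting of the counting, so reads of these pairs may not have been separable.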

How the data were processed

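Poly(A) RNA of U87 cells was sequenced in 12 libraries, 3 per group. The deposited table holds regularized log values on the log2 scale, which the authors made with DESeq2 1.30.1 from reads aligned with STAR 2.7.10a, per the submitters' processing notes and the table's name, on GRCh38. No source used here gives the counting tool, annotation, strand setting or filters. Regularized log values shrink differences and spreads of weakly read genes. Depth is unknown, so precision comes from the spread between libraries (median residual SD 0.0468, 8 residual degrees of freedom).

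Limma 3.58.1 in R 4.3.3 fitted a mean per group over all 12 libraries, with a mean-variance trend, on 15524 genes with a mean of at least 3. P-values were two-sided and adjusted by Benjamini-Hochberg over all genes tested, and genes under 0.05 were called. The fit was also run on simulated independent normal values in which few genes changed. Many genes were called in the real data, so that run does not measure false calls here. Members, lists and tests were chosen with earlier results of these data known. Full values were given for the 6 called members with the largest difference per compound against vehicle and for STAT2, IRF9, IRF1, IRF7, ISG15, IFIT1, MX1 and OAS1. Differences were given for the 4 largest called genes per other list and per pair of compounds, and promoters for up to 4 members with ISRE letters. Coordinates are from GENCODE 29 on GRCh38 and promoters from RefSeq on GRCh38.p14. Alternatives were no filter or a minimum mean of 5, libraries centred on medians or quantile-normalized, only the 2 groups compared, no trend, a replicate block, a NEAT1 and MALAT1 covariate and leaving out each library. Tables and figures came from pandas 2.3.3, numpy 2.4.6 and matplotlib 3.10.9 under Python 3.11.15.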

Additional observations from a re-analysis of the deposited data

How the results depend on the processing

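No named difference that was called in the main run or in an alternative run changed sign between them. Sign changes of differences called in neither run were not counted. Of these values 1955 kept their side of the threshold, 70 no longer passed and 12 newly passed. The number of members called moved by over 1.5 times as follows. With no filter it was 6 for compound 5 against vehicle, 0 for compound 1 against vehicle (limma, 6.0 at an unadjusted p under 0.05) and 4 for compound 5 against compound 4. The shares of all genes called were then 11.8%, 2.16% and 6.55%, against 35.1%, 10.9% and 22% in the main run. With only the 2 groups compared it was 6 for compound 5 against vehicle (31.9% of all genes). Without a mean-variance trend it was 4 for compound 1 against vehicle (10.3% of all genes), and with quantile normalization 1 (9.69%). With NEAT1 and MALAT1 as a covariate it was 6 for compound 5 and 0 for compound 1 against vehicle (limma, 6.0 at an unadjusted p under 0.05), and 10 for compound 5 against compound 1. The shares of all genes called were then 14.6%, 3.93% and 28.6%, against 35.1%, 10.9% and 30.1% in the main run. The causes were not tested. Of the counts in the other fixed lists, 214 stayed within 1.5 times and 26 did not. Leaving out each library gave 13 to 16 members for compound 4 against vehicle, 6 to 12 for compound 5, 0 to 4 for compound 1, 10 to 17 for compound 4 against compound 1, 5 to 7 for compound 5 against compound 1, and 3 to 12 for compound 5 against compound 4. Of all genes, 33% to 43.9%, 27.3% to 36.7% and 5.47% to 15.2% were then called for compounds 4, 5 and 1 against vehicle. For the pairs of compounds, in the same order, the shares were 36.6% to 46%, 23.3% to 31.4% and 15.6% to 26.2%.

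The replicate number as a block gave 15, 10 and 2 members for compounds 4, 5 and 1 against vehicle, and 17, 5 and 8 for compounds 4 against 1, 5 against 1 and 5 against 4. Of all genes, 40.6%, 35.3% and 11% were then called against vehicle, and 42.7%, 30.2% and 22.3% between compounds, in the same order. Same-numbered libraries did not deviate together (correlations -0.215 to 0.249, 4 of 18 pairs over 0.1), so the replicate numbers were not taken as a pairing. Calls kept in every alternative numbered 8 of 15 for compound 4, 4 of 10 for compound 5 and 0 of 2 for compound 1 against vehicle. The NEAT1 and MALAT1 run, whose covariate moved with treatment, is among these alternatives. How many calls of all genes were kept in every alternative was not computed.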
